A study of Rattus norvegicus with 4 samples.

Results

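The genes described here are the Slit-Robo and netrin axon guidance genes, 10 genes chosen by symbol out of 18755 listed: the receptor genes Robo1, Robo2, Dcc, Unc5a, Unc5c and Unc5d and the ligand genes Slit1, Slit2, Slit3 and Ntn1. Each symbol stood on exactly 1 line of the deposited tables. RNA came from primary cells of the cerebral cortex of embryonic day 16 Sprague Dawley rats, kept for 24 h on plain SFMA hydrogel or on 1 of the 3 hydrogels called N-SFMA, L-SFMA and NL-SFMA (100000 cells per well, 5 wells per hydrogel). All groups shared the cell source, the medium and the time, and differed in the hydrogel. The labels write L@SFMA and NL@SFMA in one field and L-SFMA and NL-SFMA in another, and they do not say what N and L stand for. Each hydrogel had 1 library, and the sources used here do not give whether the 5 wells were pooled. The question behind the series is which genes accompany the effect of cell-cell adhesion cues on growing neurons.

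Slit proteins are secreted ligands that bind Robo receptors on growth cones and migrating neurons, and the usual response is repulsion. Netrin-1, the product of Ntn1, attracts axons through the receptor DCC and repels them when an UNC5 receptor takes part. In the embryonic cortex these genes are known for steering callosal, corticofugal and thalamocortical axons and for the migration of newborn neurons.

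Summed read counts lay between 14172205 and 17553098 per library. The excitatory cortical neuron list had all 10 of its 10 markers above the expression filter, with a summed level of 1620 to 2380 CPM (the count scaled by the library's summed count). Radial glia markers, also with all 10 of 10 above the filter, summed to 1320 to 2800 CPM. Erythroid markers summed to 199 to 1530 CPM, and both lists were highest on SFMA. Microglial markers summed to 21.2 to 77.5 CPM, endothelial and pericyte markers to 4.28 to 6.42 CPM and meningeal fibroblast markers to 8.10 to 12.6 CPM. In bulk RNA, fewer cells of a type and less RNA per cell cannot be told apart. Across all genes, differences from SFMA ran with the length of the gene model, so differences are given first as measured, and the values with that trend removed follow.

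Upstream sequence was matched for 5 of the 10 genes in the RefSeq promoter table (build GRCr8), and 3 of them are printed: the Robo genes, both higher in every modified-hydrogel library than in SFMA, and Unc5a, which was not. Each is the 250 bases before a transcription start, 5′ to 3′ on the gene's strand, with any GGGCGG or its reverse complement CCGCCC in capitals. Robo1 has 2 starts in the table, at chr11:24067706-24067955 and chr11:24714445-24714694, both on the plus strand. Robo2 lies at chr11:26526413-26526662 and Unc5a at chr17:9675664-9675913, both on the minus strand.
Robo1, first start: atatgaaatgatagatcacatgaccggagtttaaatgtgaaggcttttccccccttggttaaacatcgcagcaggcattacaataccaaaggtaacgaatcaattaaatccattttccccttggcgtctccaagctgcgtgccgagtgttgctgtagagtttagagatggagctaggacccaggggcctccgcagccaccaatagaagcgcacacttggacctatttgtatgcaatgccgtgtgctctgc
Robo1, second start: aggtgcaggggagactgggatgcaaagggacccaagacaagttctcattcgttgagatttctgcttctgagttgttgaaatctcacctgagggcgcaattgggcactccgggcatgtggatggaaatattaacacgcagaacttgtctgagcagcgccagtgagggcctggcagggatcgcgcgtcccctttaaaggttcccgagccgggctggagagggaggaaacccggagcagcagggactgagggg
Robo2: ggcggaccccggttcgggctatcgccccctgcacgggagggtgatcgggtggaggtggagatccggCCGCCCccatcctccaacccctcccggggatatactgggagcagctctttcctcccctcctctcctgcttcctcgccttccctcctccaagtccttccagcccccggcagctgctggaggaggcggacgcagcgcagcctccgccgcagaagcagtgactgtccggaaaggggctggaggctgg
Unc5a: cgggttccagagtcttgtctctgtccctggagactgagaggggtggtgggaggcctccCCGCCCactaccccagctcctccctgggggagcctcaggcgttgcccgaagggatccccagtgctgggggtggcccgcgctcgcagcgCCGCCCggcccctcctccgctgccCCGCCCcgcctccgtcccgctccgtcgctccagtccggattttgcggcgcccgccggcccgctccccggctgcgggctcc
GC content was 48.0% and 57.2% at the Robo1 starts, 69.2% at Robo2 and 75.6% at Unc5a, beside a median of 51.2% over 33469 promoters of the same length. The GGGCGG letters, searched on both strands, occurred 0 times at either Robo1 start, 1 time at Robo2 and 3 times at Unc5a. They occurred in 30.5% of all promoters of that length. The E-box letters CAGATG (14.0% of promoters) and CACGTG (5.59% of promoters) and the letters TATAAA (12.9%) were in none of the 4 windows. No binding or methylation was measured, so these are descriptions of sequence alone.

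Levels compared between genes are in FPKM, which is per length of gene model. On SFMA the order from high to low was Slit1, Robo1, Unc5a, Dcc, Unc5d, Robo2, Ntn1, Slit3, Slit2 and Unc5c, from 14.3 to 0.462 FPKM. The 95% counting intervals overlapped for the neighbours Dcc and Unc5d, Robo2 and Ntn1, and Slit3 and Slit2. On NL-SFMA the order was Robo1, Slit1, Dcc, Robo2, Unc5d, Unc5a, Slit2, Ntn1, Unc5c and Slit3, from 36.2 to 1.30 FPKM, with overlap for Slit2 and Ntn1 and for Unc5c and Slit3. Between those libraries Unc5a moved from rank 3 to rank 6, Robo2 from rank 6 to rank 4, and Dcc from rank 4 to rank 3. The order on N-SFMA and on L-SFMA was the same in both, led by Robo1, Slit1, Unc5a and Dcc, and there the intervals of Unc5a and Dcc overlapped. All these intervals cover counting error only, since each hydrogel had 1 library. Reads amplified by PCR without molecular identifiers are not independent molecules, so the intervals can be too narrow even for that.

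**Figure D1:**
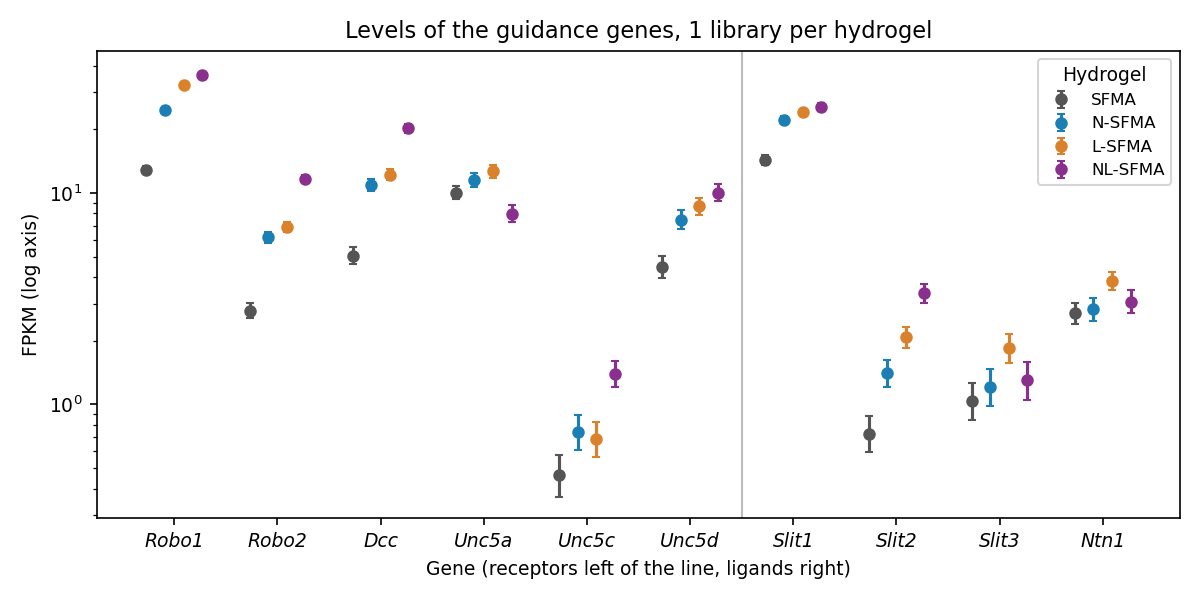
FPKM of the 10 genes (log axis) in the 4 libraries; points are single libraries, colours are hydrogels and bars are 95% counting intervals. Robo1, Robo2, Dcc, Unc5d, Slit1 and Slit2 are lowest on SFMA and highest on NL-SFMA, while Unc5a is lowest on NL-SFMA.

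Robo1 and Robo2, the Slit receptors of cortical axons, were both lowest on SFMA and highest on NL-SFMA. Robo1 stood at 12.8 FPKM on SFMA, 24.7 FPKM on N-SFMA, 32.4 FPKM on L-SFMA and 36.2 FPKM on NL-SFMA. Its CPM ratio to SFMA was 1.92 on N-SFMA (95% counting interval 1.82 to 2.04), 2.53 on L-SFMA (2.40 to 2.67) and 2.83 on NL-SFMA (2.68 to 2.98). NL-SFMA exceeded L-SFMA by a ratio of 1.12 (1.07 to 1.17), less than either single-letter library exceeded SFMA. Robo2 was at 2.77 FPKM on SFMA, 6.18 FPKM on N-SFMA, 6.88 FPKM on L-SFMA and 11.6 FPKM on NL-SFMA. Its CPM ratios to SFMA were 2.23 (2.02 to 2.46), 2.48 (2.25 to 2.73) and 4.17 (3.81 to 4.58) in the same order. Robo2 on NL-SFMA stood above both single-letter libraries, by 1.88 against N-SFMA (1.74 to 2.02) and 1.69 against L-SFMA (1.57 to 1.81). The FPKM ratio of Robo1 to Robo2 was 4.62 with SFMA, 3.99 with N-SFMA, 4.71 with L-SFMA and 3.13 with NL-SFMA. Their gene models are 8490 bases for Robo1 and 12257 for Robo2, and the length trend was not removed from this ratio.

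Dcc, which encodes the netrin receptor that mediates attraction, differed from SFMA more than any other receptor gene here once gene length was taken into account. It was at 5.06 FPKM on SFMA, 10.9 FPKM on N-SFMA, 12.2 FPKM on L-SFMA and 20.2 FPKM on NL-SFMA. The CPM ratio to SFMA was 2.15 on N-SFMA (1.92 to 2.40), 2.41 on L-SFMA (2.17 to 2.69) and 4.00 on NL-SFMA (3.61 to 4.44). No interval of these libraries overlapped that of SFMA, and NL-SFMA was above both single-letter libraries, by 1.86 (1.71 to 2.02) and 1.66 (1.53 to 1.79).

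The UNC5 receptor genes, whose products mediate repulsion from netrin, did not share 1 pattern. Unc5a was at 10.04 FPKM on SFMA, 11.6 FPKM on N-SFMA, 12.7 FPKM on L-SFMA and 7.98 FPKM on NL-SFMA. Its CPM ratio to SFMA was 1.15 on N-SFMA (1.03 to 1.28), 1.26 on L-SFMA (1.14 to 1.40) and 0.795 on NL-SFMA (0.705 to 0.896). It was the only one of the 10 genes lower on NL-SFMA than on SFMA. Unc5d, whose product also binds the FLRT family of adhesion proteins, was at 4.48 FPKM on SFMA, 7.48 FPKM on N-SFMA, 8.63 FPKM on L-SFMA and 10.03 FPKM on NL-SFMA. Its ratio on NL-SFMA was 2.24 (1.92 to 2.62), and its order over the libraries was that of Robo1, Robo2 and Dcc. Unc5c was the weakest of the receptors, at 0.462, 0.739, 0.686 and 1.40 FPKM (81, 114, 112 and 198 reads). It passed the filter of 1 FPKM only through NL-SFMA, where its CPM ratio to SFMA was 3.03 (2.33 to 3.97). The summed FPKM of these 3 UNC5 genes was 15.0 with SFMA, 19.8 with N-SFMA, 22.0 with L-SFMA and 19.4 with NL-SFMA, of which Unc5a held 67.0%, 58.4%, 57.6% and 41.1%.

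The balance between Dcc and Unc5a within a library does not depend on library scaling. The FPKM ratio of Dcc to Unc5a was 0.504 with SFMA, 0.940 with N-SFMA, 0.964 with L-SFMA and 2.53 with NL-SFMA. Relative to SFMA it was 1.87 times as large on N-SFMA (95% counting interval 1.60 to 2.18), 1.91 times on L-SFMA (1.65 to 2.22) and 5.03 times on NL-SFMA (4.29 to 5.89). The gene models are 5384 bases for Dcc and 4012 for Unc5a, and the length trends at those lengths on NL-SFMA were 0.42 and 0.15 on the log2 scale. This pair was picked after its values were seen.

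**Figure D2:**
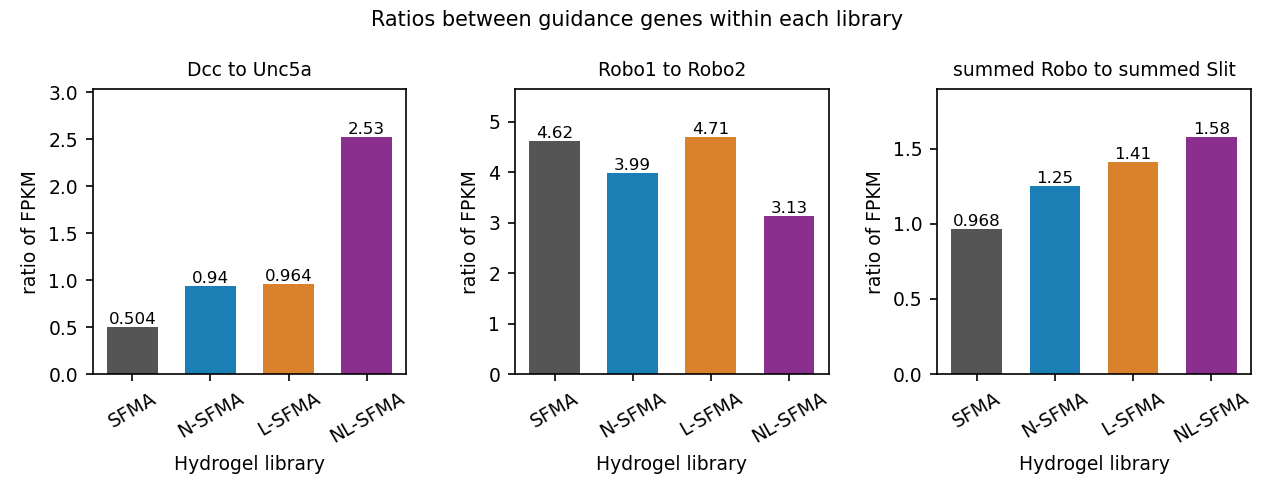
Ratios of FPKM between genes within each of the 4 libraries, 1 bar per library, with the value above each bar and axes from 0. Dcc to Unc5a goes from 0.504 on SFMA to 2.53 on NL-SFMA, Robo1 to Robo2 is lowest on NL-SFMA at 3.13, and summed Robo to summed Slit goes from 0.968 to 1.58. The genes set against each other differ in gene model length, and the length trend was not removed.

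Of the ligands, Slit1 was the most abundant, and Slit2 had the largest CPM ratios to SFMA. Slit1 was at 14.3 FPKM on SFMA, 22.0 FPKM on N-SFMA, 24.0 FPKM on L-SFMA and 25.6 FPKM on NL-SFMA, with CPM ratios to SFMA of 1.54 (1.44 to 1.65), 1.67 (1.57 to 1.79) and 1.78 (1.67 to 1.91). It held between 84.6% and 89.4% of the summed Slit FPKM in every library. Slit2, a midline repellent in the forebrain, was low throughout, at 0.728 FPKM on SFMA, 1.41 FPKM on N-SFMA, 2.07 FPKM on L-SFMA and 3.35 FPKM on NL-SFMA (109, 185, 289 and 405 reads). Its CPM ratios to SFMA were 1.93 (1.52 to 2.47), 2.85 (2.28 to 3.58) and 4.60 (3.72 to 5.74), and it was below the 1 FPKM filter value on SFMA alone. Slit3 was at 1.04, 1.21, 1.85 and 1.30 FPKM in the same order, from 97 to 161 reads. Slit3 was highest on L-SFMA (ratio 1.78, 1.38 to 2.32), and its intervals on N-SFMA (0.869 to 1.55) and NL-SFMA (0.935 to 1.67) included 1.

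Ntn1, the gene for netrin-1, was at 2.69 FPKM on SFMA, 2.83 FPKM on N-SFMA, 3.84 FPKM on L-SFMA and 3.06 FPKM on NL-SFMA. Its ratio on L-SFMA was 1.42 (1.22 to 1.67), while the intervals on N-SFMA (0.883 to 1.25) and NL-SFMA (0.957 to 1.35) included 1. On NL-SFMA, where its receptor gene Dcc was highest, a difference of the ligand gene from SFMA was not detectable at this depth. The FPKM ratio of Dcc to Ntn1 was 1.88 with SFMA, 3.84 with N-SFMA, 3.18 with L-SFMA and 6.60 with NL-SFMA. Summed Robo FPKM over summed Slit FPKM was 0.968, 1.25, 1.41 and 1.58 in the same order.

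Counted together, all 10 genes passed the filter, 2 of them (Unc5c and Slit2) with at least 1 library below 1 FPKM. A difference was counted as 2-fold when log2(FPKM + 1) differed by at least 1, a scale that understates low genes, and the 3 comparisons share the SFMA library. On N-SFMA 0 of 10 genes were at least 2-fold higher, where 0.855% of all 12394 genes tested were, and 0 were 2-fold lower (2.65% of all genes). On L-SFMA 3 of 10 were higher (Robo1, Robo2 and Dcc; 3.32% of all genes) and 0 lower (3.04%). On NL-SFMA 5 of 10 were higher (Robo1, Robo2, Dcc, Unc5d and Slit2; 10.1% of all genes) and 0 lower (15.1%). The median log2 differences of the 10 genes were 0.53, 0.76 and 0.90 in that order, beside -0.02, 0.05 and -0.10 over all genes tested. The 6 receptor genes had medians of 0.76, 0.94 and 1.22, and the 4 ligand genes 0.30, 0.60 and 0.48. With the trend on gene length removed, the medians were 0.22, 0.25 and 0.43 for the 10 genes and 0.48, 0.48 and 0.69 for the receptors, and those of the ligands were near 0 on N-SFMA (0.003) and NL-SFMA (0.028) and 0.17 on L-SFMA. Counting intervals of the CPM ratio lay wholly above 1 for 8 of 10 genes on N-SFMA (32.4% of all genes), 10 of 10 on L-SFMA (40.6%) and 7 of 10 on NL-SFMA (37.1%). The 7 on NL-SFMA include Unc5c, which passed the filter only through that library. They lay wholly below 1 for 0 genes on N-SFMA (35.8% of all genes) and L-SFMA (32.3%) and for 1 gene, Unc5a, on NL-SFMA (45.4%). Over all genes, 52.2% of the 2-fold calls on L-SFMA were upward, and 42.2% with TMM scaling.

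Much of this lay on the trend with gene length. The gene models of these 10 genes ran from 3319 bases for Unc5d to 12257 for Robo2, and the trend on NL-SFMA at those lengths was -0.04 and 1.03 on the log2 scale. As measured, Robo2 differed by 1.74 on NL-SFMA, and by 0.71 with the trend removed. Robo1 went from 1.43 to 0.66, Slit2 from 1.33 to 0.56 and Slit1 from 0.79 to 0.29. On the log2(FPKM + 1) scale, Dcc (1.81 to 1.39) and Unc5d (1.01 to 1.05) were the 2 genes still at least 2-fold higher on NL-SFMA with the trend removed, when 8.07% of all genes were. On L-SFMA 0 of 10 were then 2-fold higher (2.31% of all genes), with Dcc at 0.75, Unc5d at 0.72 and Robo1 at 0.67. On N-SFMA 0 of 10 were (1.07% of all genes), and Dcc was again the largest at 0.75, followed by Unc5d at 0.62. Unc5c, Slit3 and Ntn1 lay below the trend on N-SFMA (-0.18, -0.10 and -0.20) and on NL-SFMA (-0.18, -0.24 and -0.37), where they were 0.25, 0.11 and 0.05 and 0.71, 0.17 and 0.14 as measured. Unc5c is low, and the pseudocount of 1 shrinks its measured differences before the trend is subtracted. In the additive model below with the length trend entered, which works on counts, Unc5c was at 0.45 for N and 0.05 for L. Unc5a on NL-SFMA was -0.30 as measured and -0.45 with the trend removed. Values with the trend removed can also be too low for the other low genes, such as Slit2, and so can the ligand medians above. In the additive model with the length trend entered, Slit2 was at 0.77 for L and 0.48 for N, and Dcc at 0.74 and 0.75. In all, 7, 8 and 6 of the 10 genes lay above the trend on N-SFMA, L-SFMA and NL-SFMA, where 50.3%, 50.1% and 49.4% of all genes did. Over all genes, removing the trend moved the upward share of 2-fold calls from 24.4% to 44.6% on N-SFMA, from 52.2% to 64.0% on L-SFMA and from 40.1% to 52.1% on NL-SFMA.

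**Figure D3:**
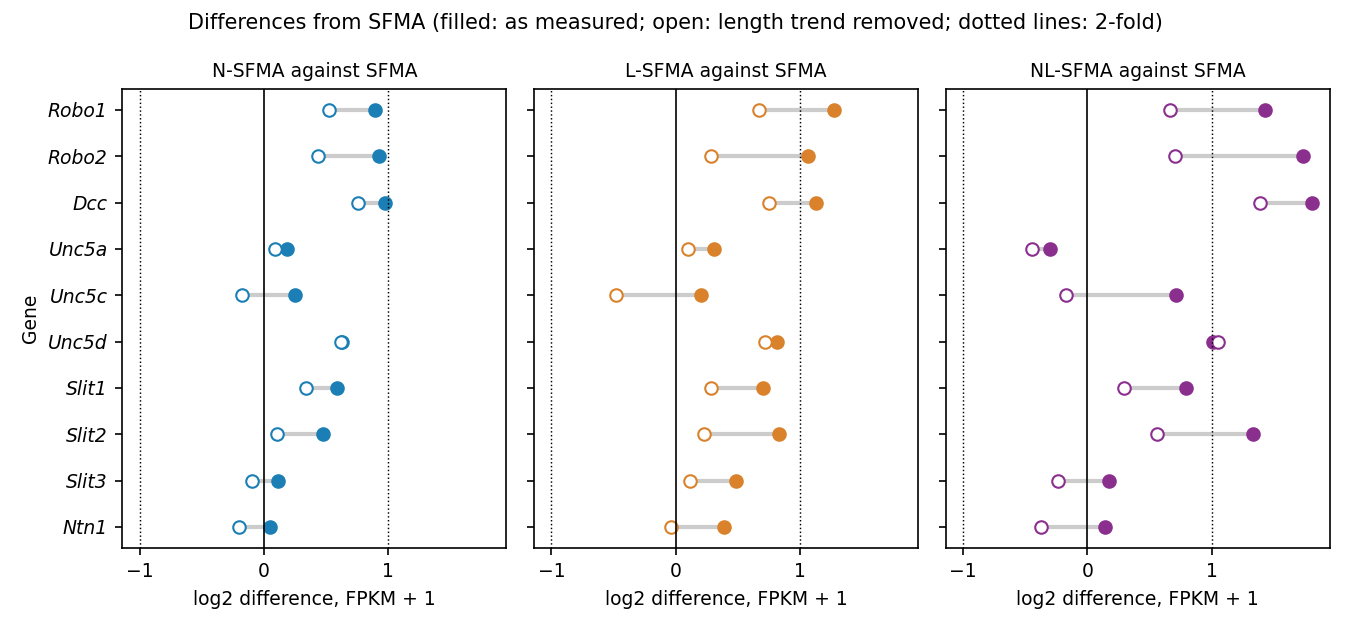
Log2 differences of FPKM + 1 from SFMA for the 10 genes in 3 panels, 1 per modified hydrogel; filled points are as measured, open points have the length trend removed and dotted lines mark 2-fold. Dcc keeps the largest open value in each panel (0.75, 0.75 and 1.39), and Unc5c and Ntn1 cross 0 in each.

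**Figure D4:**
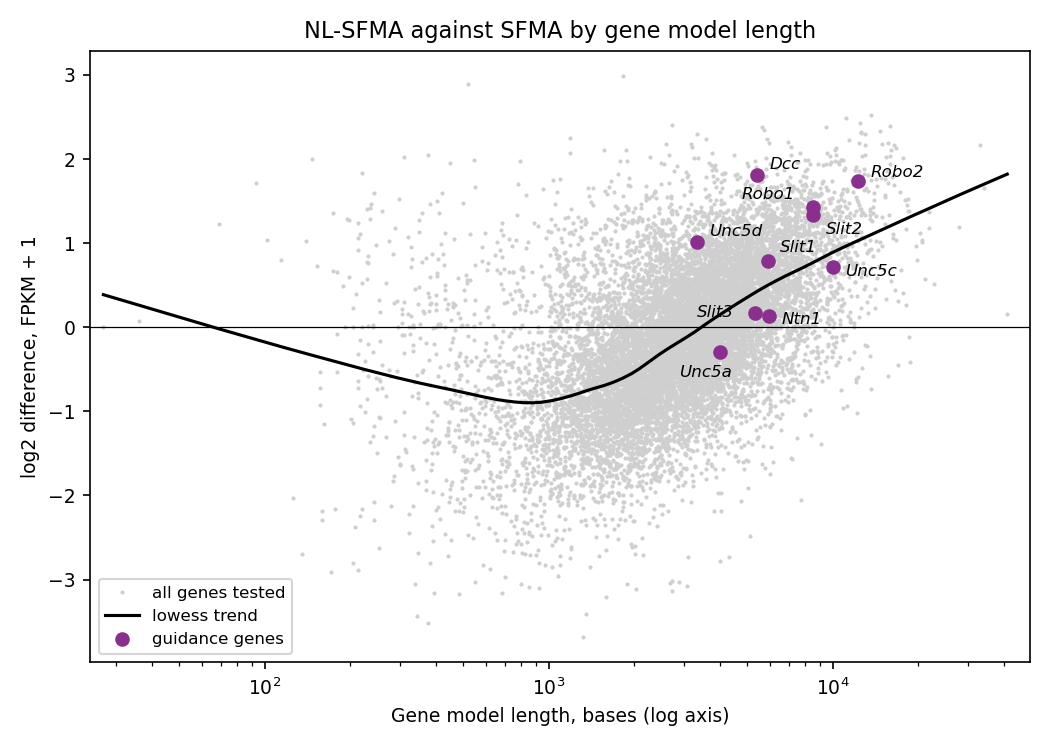
Log2 difference of FPKM + 1 between NL-SFMA and SFMA against gene model length (log axis) for 12394 genes in grey, with the lowess trend as a line and the 10 genes in purple. Dcc and Unc5d stand farthest above the line, and Unc5c, Unc5a, Slit3 and Ntn1 lie below it.

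The length trend differs little between genes of nearly equal model length. Dcc (5384 bases), Slit3 (5324), Slit1 (5885) and Ntn1 (5964) are within a length ratio of 1.2 of one another, a comparison chosen after the values were seen. On NL-SFMA the ratio to SFMA of Dcc was 3.20 times that of Slit3 (95% counting interval 2.34 to 4.36), 2.24 times that of Slit1 (1.98 to 2.54) and 3.51 times that of Ntn1 (2.87 to 4.30). On N-SFMA these were 1.85 (1.35 to 2.53), 1.40 (1.22 to 1.59) and 2.05 (1.66 to 2.52). On L-SFMA they were 1.35 (1.02 to 1.79), 1.44 (1.27 to 1.64) and 1.69 (1.40 to 2.05). Every one of these intervals lay above 1. Robo1 (8490 bases) and Slit2 (8529 bases), a receptor and its ligand, did not differ beyond counting error on N-SFMA (0.997, 0.774 to 1.28) or L-SFMA (0.887, 0.701 to 1.12). On NL-SFMA the ratio of Robo1 was 0.614 times that of Slit2 (0.489 to 0.766). Unc5c (9993 bases) was also within that length ratio of both. The ratio of Robo1 over that of Unc5c was 1.70 with L alone (1.26 to 2.30), its interval spanned 1 with N alone (0.888 to 1.62), and it was 0.934 with both letters (0.708 to 1.22).

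The hydrogel names can be read as 2 factors, N and L, on the assumption that a letter marks 1 modification wherever it appears. A model in which both add up was fitted to the counts of all genes with edgeR's quasi-likelihood test and Benjamini-Hochberg adjustment. Its 1 residual degree of freedom is the N by L interaction, so no spread between replicate cultures enters it. For the L term, 4 of 10 genes rose (8.48% of all genes did): Slit2 by 1.37 on the log2 scale (SE 0.31, adjusted p = 0.000465), Robo2 by 1.10 (SE 0.25, adjusted p = 0.000658), Dcc by 1.08 (SE 0.26, adjusted p = 0.00102) and Robo1 by 0.94 (SE 0.26, adjusted p = 0.00585). For the N term, 3 of 10 rose (3.65% of all genes): Robo2 by 1.04 (SE 0.25, adjusted p = 0.00319), Dcc by 1.00 (SE 0.26, adjusted p = 0.00551) and Slit2 by 0.90 (SE 0.31, adjusted p = 0.0464). None of the 10 passed downward for either term, where 4.11% of all genes did for N and 6.68% for L. Unc5a had estimates of -0.15 for N (adjusted p = 0.781) and -0.10 for L (adjusted p = 0.832), and Ntn1 of -0.05 and 0.31 (adjusted p = 0.946 and 0.507). With each library's length trend entered in the model, 0 of 10 genes passed for either term, where 0.775% of all genes rose and 1.18% fell for N and 2.22% rose and 1.9% fell for L. Dcc then came nearest, at 0.75 for N (adjusted p = 0.0969) and 0.74 for L (adjusted p = 0.0741).

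N-SFMA against SFMA and NL-SFMA against L-SFMA both add N, and for Robo1 the log2 differences were 0.89 and 0.16 (0.52 and -0.009 with the length trend removed). For Dcc they were 0.97 and 0.68 (0.75 and 0.62 with the trend removed), and for Robo2 0.93 and 0.68 (0.44 and 0.43). Slit1 had 0.59 and 0.09 (0.34 and 0.003), Slit2 0.48 and 0.50 (0.10 and 0.33) and Unc5a 0.18 and -0.60 (0.09 and -0.57). The value for adding N was lower in the presence of L for 8 of the 10 genes and for 60.5% of all genes tested, and with the trend removed for 8 of the 10 and 50.5% of all genes. The difference of these differences had a median of -0.36 over the 10 genes and of -0.13 over all genes, whose interquartile range ran from -0.47 to 0.21. Robo1 (-0.74), Unc5a (-0.79) and Slit1 (-0.50) lay below that range, and Unc5c (0.26) lay above it. With the trend removed the medians were -0.20 and -0.007, and the range ran from -0.35 to 0.34. Robo1 (-0.53) and Unc5a (-0.66) then lay below it, Slit1 (-0.34) did not, and Unc5c (0.48) lay above it. Unc5c passed the filter only through NL-SFMA, and a high value there makes this difference positive, so its place above the range is no result. None of the 10 was 2-fold different between NL-SFMA and N-SFMA (2.15% of all genes higher, 5.58% lower) or between NL-SFMA and L-SFMA (0.871% higher, 6.87% lower). Of all 2-fold calls, 27.8% and 11.3% were upward in these comparisons, and 40.2% and 29.5% with DESeq2's size factors.

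Other genes of the pathway were taken from a list of 61, of which 60 were found and 55 passed the filter. On the hydrogels with N, with L and with both letters, 1, 7 and 11 of the 55 were at least 2-fold higher and 0, 0 and 2 lower, to be read beside the shares of all genes given above (0.855%, 3.32% and 10.1% higher, 2.65%, 3.04% and 15.1% lower). The median log2 differences were 0.28, 0.38 and 0.37, and 0.12, 0.19 and 0.16 with the length trend removed. In the additive model 7 of 55 rose and 1 fell for N, and 11 rose and 1 fell for L, beside 3.65%, 4.11%, 8.48% and 6.68% of all genes in that order. With the length trend in the model, 0 rose and 2 fell for N, and 2 rose (Srgap3 and Trim67) and 2 fell for L, the genes that fell being Vasp and Rgma both times. The shares of all genes in that order were then 0.775%, 1.18%, 2.22% and 1.9%.

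The Slit-Robo GTPase-activating proteins bind Robo receptors, and the gene of 1 of them, Srgap1, held the largest difference of the list as measured. With the length trend removed the largest was that of Vasp, at -1.72 on NL-SFMA. Srgap1 was at 2.61 FPKM on SFMA, 6.34 FPKM on N-SFMA, 8.85 FPKM on L-SFMA and 13.8 FPKM on NL-SFMA, and its log2 difference on NL-SFMA was 2.04, or 1.16 with the trend removed. Srgap3 was at 7.33, 13.0, 16.7 and 24.0 FPKM (1.58, or 1.31 with the trend removed). Srgap2, named here after its values were seen, was at 9.17, 12.8, 14.9 and 18.7 FPKM (0.96, or 0.30 with the trend removed). Neo1, which encodes the DCC relative neogenin, was at 7.48, 15.4, 19.1 and 29.1 FPKM, and its 1.82 on NL-SFMA became 0.76 with the trend removed. Srgap1, Srgap2, Srgap3 and Neo1 were lowest on SFMA and highest on NL-SFMA, as Dcc and the Robo genes were. Flrt3, an UNC5 ligand, was at 5.62, 11.4, 11.5 and 18.5 FPKM, and its relative Flrt2 at 4.10, 7.05, 8.40 and 14.4 FPKM. Sos1, a guanine nucleotide exchange factor recruited to Robo, was at 6.68, 11.2, 13.5 and 21.2 FPKM. Dscam, a further netrin receptor, was at 3.33, 6.71, 10.03 and 9.81 FPKM, highest on L-SFMA.

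Vasp, an actin regulator of the Ena/VASP family, went the other way, at 16.6 FPKM on SFMA, 11.3 FPKM on N-SFMA, 13.1 FPKM on L-SFMA and 4.50 FPKM on NL-SFMA. Its log2 difference on NL-SFMA was -1.68, and -1.72 with the trend removed. Vasp was the 1 gene of the list that fell in the additive model without the length trend, by 0.96 for N (adjusted p = 0.0127) and by 0.83 for L (adjusted p = 0.0193). With DESeq2 in place of edgeR it passed for neither term. The other gene 2-fold lower on NL-SFMA was Rgma, a neogenin ligand named here after its values were seen, at 27.4, 18.7, 23.9 and 12.6 FPKM. Robo3 and Robo4 stayed under 1 FPKM in every library.

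**Figure D5:**
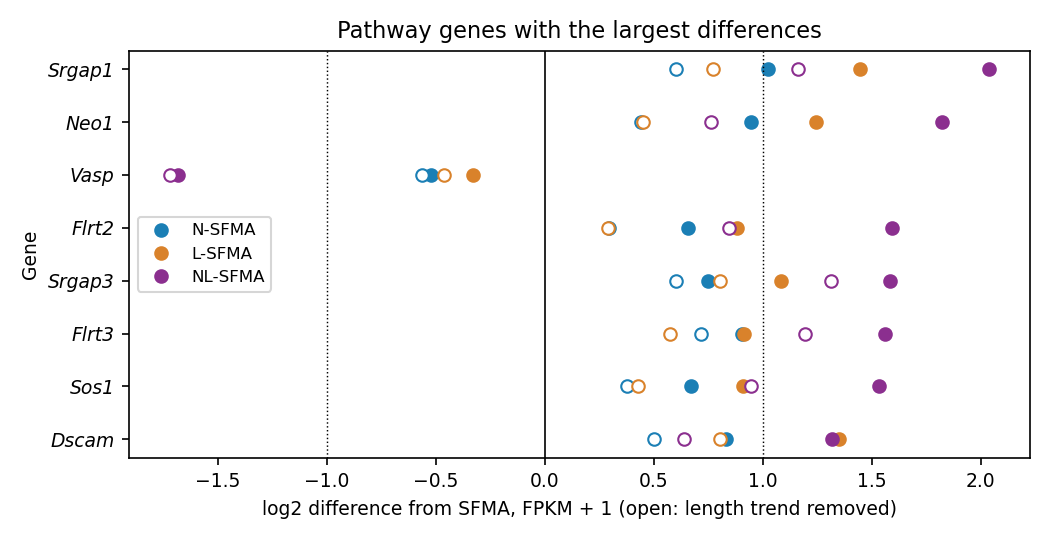
Log2 differences of FPKM + 1 from SFMA for the 8 pathway genes with the largest difference; colours are hydrogels, filled points are as measured, open points have the length trend removed and dotted lines mark 2-fold. The other genes lie to the right of 0 on all 3 hydrogels, led by Srgap1 at 2.04, and Vasp alone lies to the left, at -1.68 on NL-SFMA.

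Cell type markers differed between the same libraries, and their part in the results above was not tested. The counts that follow stand beside shares of all genes on N, L and NL of 0.855%, 3.32% and 10.1% at least 2-fold higher and 2.65%, 3.04% and 15.1% lower. Summed excitatory neuron markers were 1620 CPM on SFMA and 2120, 2380 and 2220 CPM on the 3 modified hydrogels in the order N, L and NL, with 1, 2 and 2 of 10 markers at least 2-fold higher and 0 lower. Summed radial glia markers were 2800, 1330, 1320 and 1470 CPM, with 4, 3 and 4 of 10 at least 2-fold lower and 0 higher. Interneuron markers were 500, 430, 412 and 259 CPM, with 0, 1 and 3 of 9 lower and 0 higher. With the length trend removed, 0, 0 and 0 of the 10 excitatory markers were 2-fold higher (1.07%, 2.31% and 8.07% of all genes). Radial glia then had 2, 2 and 3 of 10 lower and 0, 1 and 0 higher, and interneurons 0, 0 and 1 of 9 lower. Of all 12394 genes, 165, 161 and 920 were then 2-fold lower. Counts for the lists that follow are as measured. Intermediate progenitor markers were 360, 489, 519 and 408 CPM, with 2, 2 and 1 of 7 higher and 0, 0 and 2 lower. Astrocyte markers were 237, 118, 180 and 66.5 CPM, with 1, 0 and 2 of 6 lower and 0 higher. Oligodendrocyte lineage markers were 39.2, 22.6, 26.1 and 16.2 CPM, with 1, 1 and 2 of 4 lower. Erythroid markers were 1530, 464, 261 and 199 CPM, with 3, 5 and 5 of 5 lower. Cajal-Retzius markers summed to 19.4, 41.0, 56.2 and 89.5 CPM, mostly from Reln on the modified hydrogels. On SFMA Reln had 155 reads, Calb2 112 and Lhx5 63. The log2 difference of Reln on NL-SFMA was 2.02, or 0.84 with the length trend removed. Of the other markers of this list above the filter, Calb2 went the other way, at -1.13, or -0.49 with the trend removed. Lhx5 was at -0.035 as measured and 0.54 with the trend removed. Of the microglial list, with 2, 0 and 3 of 4 tested markers lower, C1qa had 0 reads on NL-SFMA and P2ry12 had 0 on N-SFMA. Of the endothelial list, Cdh5 had 0 reads on N-SFMA. In the meningeal list Dcn had 0 reads on L-SFMA, and Lum and Foxc1 had 0 on NL-SFMA.

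The genes with the pattern most like Robo1 over the 4 libraries, by Euclidean distance between centred log2(FPKM + 1) values among 8482 genes with a mean of at least 5 FPKM, were Spen (distance 0.0608), Ep400 (0.0709) and a gene listed without a symbol, ENSRNOG00000063496 (0.0786). For Slit1, the most abundant ligand, they were L3mbtl3 (0.0218), Abca3 (0.0323) and Phf8 (0.0419). Within a distance of 0.1 there were 7 genes for Robo1 and 25 for Slit1. With 4 libraries such likeness is a description.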

How the data were processed

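For each of 4 libraries the authors deposited a read count and an FPKM for each of 18755 genes. Per the submitters' processing notes HISAT2 and HTSeq 0.13.5 were used. A rat and a human build are named there with no role, and the sources used here do not give the strand setting, annotation release or filters. Per the file headers the second value is FPKM, and it was checked against the deposited count: the gene model lengths recovered from both were whole to within 2.4e-09 bases. That makes the FPKM values relative to each library's summed count.

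The 10 genes, the pathway list and the marker lists were chosen with earlier results of these data known. Genes with at least 1 FPKM in at least 1 library were tested (12394). Differences are of log2(FPKM + 1), a pseudocount of 1. CPM ratios (count over summed count, no pseudocount) carry exact Clopper-Pearson 95% intervals conditional on both counts. As no hydrogel has a second library, a pair of libraries gets no p-value. The length trend is a lowess fit (fraction 0.3, statsmodels 0.14.6) of the difference on log2 gene model length. The additive model used edgeR 4.0.16 (TMM, common dispersion 0.0408, adjusted p threshold 0.05), with limma 3.58.1 and DESeq2 1.42.0 as alternatives. Both procedures were tested on simulated data. Other alternatives were a pseudocount of 0.1, TMM and DESeq2 scaling, no filter, and removal of the length trend. Named pathway genes are the 8 with the largest difference from SFMA among those with at least 5 FPKM in the higher library. Promoter letters come from the RefSeq table of GRCr8, matched by symbol. Reads of paralogs or antisense genes could be shared, since the strand setting is unknown.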

Additional observations from a re-analysis of the deposited data

Results flagged for a closer look

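Unc5a differed in direction with the hydrogel it was compared on. Adding N gave a CPM ratio of 1.15 without L (N-SFMA against SFMA) and 0.631 with L (NL-SFMA against L-SFMA). Adding L gave 1.26 without N and 0.691 with N. The counting intervals of all 4 ratios excluded 1, each ratio rests on 1 library a side, and the difference between them was not tested. Intervals lay above 1 for 32.4% of all genes on N-SFMA and 40.6% on L-SFMA against SFMA. For NL-SFMA they lay below 1 for 39.4% against N-SFMA and 44.7% against L-SFMA. With the length trend removed, the log2 differences of Unc5a were 0.09 for N without L and 0.10 for L without N. They were -0.57 for N with L and -0.55 for L with N.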

How the results depend on the processing

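With 1 library per hydrogel no replicate could be left out. No paired analysis was possible because each hydrogel has a single library. With the length trend removed, 0 of the 10 genes were 2-fold different on L-SFMA in place of 3 and 2 on NL-SFMA in place of 5, and of the 55 pathway genes 0 on N-SFMA in place of 1, 1 on L-SFMA in place of 7 and 7 on NL-SFMA in place of 13. With the trend in the additive model 0 genes passed for N in place of 3 and 0 for L in place of 4, and Ntn1 went to -0.091 for L from 0.31. A pseudocount of 0.1 gave 2 of the 10 genes on N-SFMA in place of 0 (Robo2 and Dcc), 1 for NL-SFMA against N-SFMA in place of 0 (Slit2), and 4 pathway genes on N-SFMA and 11 on L-SFMA. DESeq2's size factors gave 1 of the 10 genes on N-SFMA (Dcc). Slit2 missed the threshold for N with DESeq2 (adjusted p = 0.114), limma (0.282) and no filter (0.0636), and Robo2 and Dcc passed for N in all 3. Of the 7 pathway genes that rose for N in the additive model, 5 passed with DESeq2, 2 with limma and 4 with no filter. With DESeq2 0 pathway genes fell for either term, so Vasp did not pass there. The other counts of the 10 genes, and of pathway genes 2-fold different either way, stayed within 1.5 times their value. Unc5c, Slit2 and Slit3 rest on 81 to 405 reads a library, and their ratios have the widest counting intervals.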
